A study of Rattus norvegicus with 18 samples.

Results

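Tp63, Sox2, Klf4, Klf5, Grhl3, Pitx1 and Ovol1 encode transcription factors of the squamous epithelial lineage, and their mRNA was followed through the stages of 4NQO-induced carcinogenesis in the rat tongue. The members were the probe sets whose annotated gene symbol was 1 of these 7 names. They came to 13 of the 31042 non-control probe sets of the array and covered 6 of the 7 genes, since no probe set of the annotation used here carried the symbol Ovol1, which was therefore not analysed here. For each gene the probe set with the highest mean log2 signal over all 18 samples stands for the gene, and the others are given beside it.

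Male Sprague Dawley rats drank water with 0.002% 4NQO, a carcinogen that forms bulky DNA adducts, and tongue lesions of dysplasia or SCC were collected between weeks 14 and 22, whereas the normal animals drank distilled water. The groups were normal, dysplasia and SCC oral epithelia, lifted off the tongue as a sheet after dispase digestion, and normal, dysplasia and SCC submucosal fibroblasts, the cells of the underlying tissue that adhered to plastic shortly after collagenase digestion. Each of the 6 groups held 3 samples, each made from 3 rats, so that a sample is a pool and the spread between samples understates the spread between animals. The fibroblasts were selected by adhesion, and no engineered allele is named for any group.

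These factors divide the work of building a stratified epithelium. Tp63 encodes p63, the factor that maintains basal keratinocytes, and Sox2 encodes an HMG-box factor of oral and oesophageal progenitors. Klf5 is a zinc finger factor of dividing basal cells, while its relative Klf4, together with the grainyhead factor Grhl3, drives terminal differentiation and the epidermal barrier in mice. Pitx1 is a homeodomain factor of the oral ectoderm and the hindlimb, and Ovol1 is a zinc finger repressor that ends progenitor growth.

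Of the 6 measured genes, Klf4 was the only one whose main probe set was called lower in SCC epithelia and Grhl3 the only one whose main probe set was called between the layers at all stages, so the promoters of these 2 genes are shown. Both windows run from 250 bases before the RefSeq start to 50 bases after it on assembly GRCr8. The Klf4 window lies on the minus strand at chr5:75078543-75078842, and its capitals mark 1 match to the SOX motif ATTGT and 1 to the GRHL motif CCGGTT.
Klf4: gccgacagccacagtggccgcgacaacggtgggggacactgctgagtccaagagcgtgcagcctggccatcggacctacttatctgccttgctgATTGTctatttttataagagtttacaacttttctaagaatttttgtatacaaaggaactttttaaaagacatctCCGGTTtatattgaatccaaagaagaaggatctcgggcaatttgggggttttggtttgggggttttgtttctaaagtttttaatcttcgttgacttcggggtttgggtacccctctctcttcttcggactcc
The Grhl3 window lies on the minus strand at chr5:153089841-153090140, and its capitals mark 3 matches to the KLF motif CACCC.
Grhl3: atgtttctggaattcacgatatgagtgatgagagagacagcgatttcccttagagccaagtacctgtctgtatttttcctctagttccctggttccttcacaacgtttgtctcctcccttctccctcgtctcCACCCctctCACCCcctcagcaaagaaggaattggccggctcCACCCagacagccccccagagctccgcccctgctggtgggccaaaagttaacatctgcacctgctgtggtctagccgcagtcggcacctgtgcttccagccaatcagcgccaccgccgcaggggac
Motifs were searched on both strands, and no marked match overlaps another. Over all 33469 promoter windows of this length, 54.9% held CACCC, 33.7% held ATTGT and 7.04% held CCGGTT. The Klf5 window held 2 matches to CACCC, the Tp63 window held 1, and the Sox2 window held none of the motifs searched. The PITX motif TAATCC, present in 7.17% of all windows, the OVOL motif CCGTTA, present in 2.93%, and the paired-CATG motif of p63, present in 0.457%, had no match in the 5 windows of the members. RefSeq windows for Pitx1 and Ovol1 were not used here. A match is a run of letters and not a bound site.

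Values are log2 signal, on which a difference of 1 is a doubling. The fibroblast samples gave strong signals of keratinocyte markers, with Krt5 between 12.40 and 13.69 and Krt14 between 12.88 and 14.13, and the mean of the 17 measured epithelial markers was 12.82 to 13.04 in the epithelial samples, against 10.21 to 12.45 in the fibroblast samples. At every stage fibroblast sample 3 stood apart from samples 1 and 2. Its epithelial marker mean was lower by 1.77 in the normal, 0.67 in the dysplasia and 0.87 in the SCC group, and its fibroblast marker mean was higher by 0.50, 0.88 and 0.58 at the same stages. Other markers did not keep 1 direction. Taken in the same order, sample 3 differed from samples 1 and 2 by -2.43, 1.70 and 1.43 in its macrophage marker mean. For the endothelial marker mean these differences were 1.14, 0.27 and -0.13. SCC epithelia 2 had the highest fibroblast marker mean of the epithelial samples, 11.47 against 6.47 to 9.51 in the other 8. Within the epithelia 12 of 17 measured macrophage markers and 5 of 19 fibroblast markers were called higher in SCC than in normal samples, with 0 lower. In that comparison 29.9% of all probe sets were called in either direction, and 5467 of 14217 genes with 1 probe set per gene, 2740 of them higher. In SCC fibroblasts the Actb 3′ minus 5′ difference, a sign of RNA quality, was 1.14 to 1.26, below all normal and dysplasia fibroblast samples (1.51 to 2.02), and the mean of 9 neutrophil markers was 6.91 to 7.51 in normal, 8.26 to 8.45 in dysplasia and 9.69 to 9.79 in SCC fibroblasts. The part of these shifts in the differences below was not tested. In such mixed material fewer cells of a type and less RNA per cell cannot be told apart.

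All 6 factors gave bright signals by their main probe sets. Averaged over the 18 samples, Klf4 was at 13.11, Klf5 at 12.18, Tp63 at 11.72, Grhl3 at 11.25, Pitx1 at 10.55 and Sox2 at 10.31, which placed them between percentiles 91.0 and 99.6 of all probe sets. The main probe set is the brightest of its gene, so these percentiles are partly fixed by that choice. The dimmest probe sets stood at percentile 40.6 for Tp63, 5.64 for Sox2 and 31.5 for Klf5. The remaining ones of Sox2 and Klf5 stood between 73.0 and 95.7. These levels come from different probes and give no order among the genes. In the epithelia the SD within a group was between 0.047 and 0.21 for every factor, whereas in the fibroblasts it reached 1.49 for Tp63 and 1.40 for Grhl3.

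**Figure D1:**
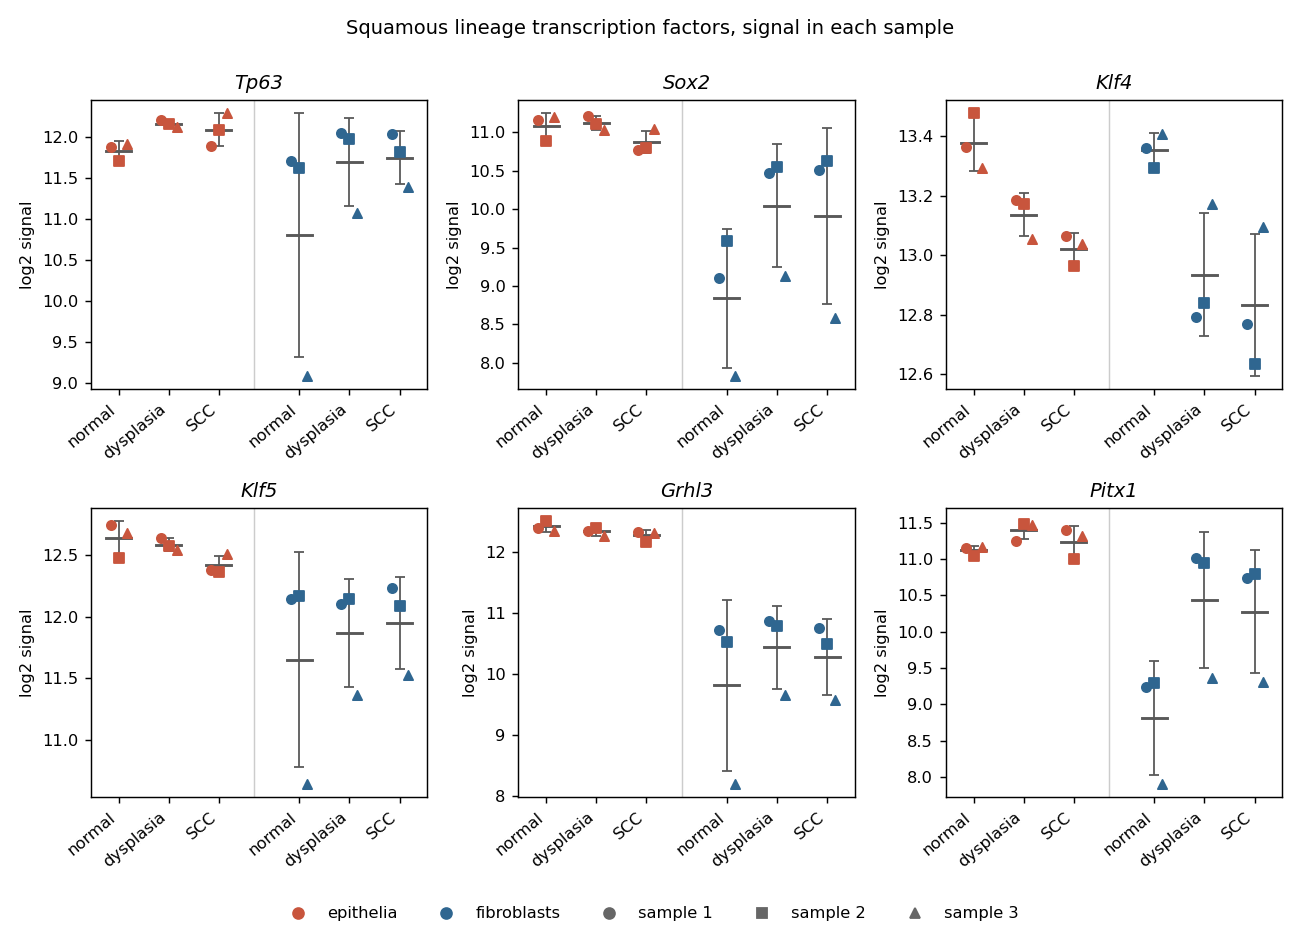
Log2 signal of each factor (y axis) in each sample, with 3 samples per group, horizontal bars at the group mean and error bars of 1 SD. Epithelia are red and fibroblasts blue, and the marker shape gives the sample number. The epithelial samples of a gene lie close together, and fibroblast sample 3 (triangles) lies below samples 1 and 2 for every factor but Klf4.

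The first comparison asked whether these factors change along the stages within the epithelia. Klf4 was lower in SCC epithelia than in normal epithelia, and no other factor was called by its main probe set. Klf4, a driver of terminal differentiation, read 13.36, 13.48 and 13.29 in normal epithelia, 13.19, 13.17 and 13.05 in dysplasia epithelia and 13.07, 12.96 and 13.04 in SCC epithelia. All 3 SCC samples lay below all 3 normal samples. The SCC minus normal difference was -0.36 (SE 0.10, 95% interval -0.58 to -0.13, adjusted p = 0.0267), a signal 1.28-fold lower in SCC epithelia. It was the only 1 of 6 factors called in that comparison, in which 29.9% of all probe sets were called and 17.3% were called lower. The call was lost when any 1 of normal epithelia 1, normal epithelia 2, SCC epithelia 2 or SCC epithelia 3 was left out, with differences of -0.36, -0.31, -0.33 and -0.36 and adjusted p between 0.0557 and 0.0798, and also under quantile normalization (-0.22, adjusted p = 0.147) and spike-in alignment (-0.30, adjusted p = 0.156). Dysplasia epithelia stood between, 0.24 below normal epithelia without overlap, and this step was not called (95% interval -0.47 to -0.02, adjusted p = 0.138).

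Tp63 was called higher by only 1 of its 2 probe sets. Its main probe set 1369108_at read 11.88, 11.70 and 11.92 in normal epithelia, 12.21, 12.16 and 12.12 in dysplasia epithelia and 11.89, 12.08 and 12.29 in SCC epithelia. The dysplasia samples lay above the normal ones, by 0.33 on average (SE 0.13, 95% interval 0.05 to 0.61), but the adjusted p of 0.111 did not pass. The SCC samples overlapped both other groups. The second Tp63 probe set, 1371107_a_at, was dimmer and was called: it averaged 7.04 in dysplasia epithelia against 6.21 in normal epithelia, a difference of 0.84 (SE 0.17, adjusted p = 0.0165), and it was 0.54 higher in SCC epithelia than in normal epithelia (SE 0.17, adjusted p = 0.0443). The 2 probe sets had the same sign in both comparisons and correlated over the 18 samples (r = 0.829).

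Sox2 read 11.16, 10.88 and 11.20 in normal epithelia, 11.22, 11.11 and 11.03 in dysplasia epithelia and 10.78, 10.80 and 11.04 in SCC epithelia. The 3 groups overlapped. The SCC minus normal difference was -0.21 (95% interval -0.50 to 0.08) and the dysplasia minus normal difference was 0.038 (95% interval -0.25 to 0.33). The other probe sets did not share a direction. Between dysplasia and normal epithelia 1381874_at differed by 0.026, 1375153_at by 0.40 and the very dim 1389826_at, at the percentile 5.64 of all probe sets, by -0.40 (adjusted p = 0.0479).

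Klf5, a factor of dividing basal cells, was called lower in SCC epithelia by 1 of its 4 probe sets. The main probe set 1394039_at read 12.75, 12.47 and 12.68 in normal epithelia, 12.64, 12.58 and 12.54 in dysplasia epithelia and 12.38, 12.36 and 12.50 in SCC epithelia. The SCC and normal samples overlapped only through normal epithelia 2, and the difference of -0.22 was not called (95% interval -0.46 to 0.03, adjusted p = 0.158). Probe set 1385961_at of the same gene was called at -0.38 (SE 0.099, adjusted p = 0.0202), while 1368363_at differed by -0.15 and the dim 1398159_at by 0.25, neither of them called.

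Grhl3 and Pitx1 were not called at any stage. Grhl3 read 12.39, 12.50 and 12.34 in normal epithelia, 12.33, 12.39 and 12.26 in dysplasia epithelia and 12.33, 12.15 and 12.31 in SCC epithelia. The SCC samples lay below the normal ones without overlap, and the difference was -0.15 (95% interval -0.38 to 0.08, adjusted p = 0.302). Pitx1 read 11.15, 11.05 and 11.17 in normal epithelia, 11.26, 11.48 and 11.47 in dysplasia epithelia and 11.41, 11.00 and 11.32 in SCC epithelia. The dysplasia samples were all above the normal ones, by 0.28 (95% interval -0.02 to 0.58, adjusted p = 0.186), and the SCC samples overlapped both.

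By limma, 0 of 6 main probe sets were called between dysplasia and normal epithelia, where 14.5% of all probe sets were called, and 2 of the 6, Tp63 and Klf4, had an unadjusted p under 0.05. Between SCC and dysplasia epithelia 0 of 6 were called, 0.0258% of all probe sets were called, and none had an unadjusted p under 0.05. By the methods' t-test after Benjamini-Hochberg adjustment 0 were called in both. Between dysplasia and normal epithelia, however, limma with trend and robust called 2 of the 6, Tp63 (0.33, adjusted p = 0.0457) and Klf4 (-0.24, adjusted p = 0.0258), and array weights called Klf4 (-0.25, adjusted p = 0.0412) and Pitx1 (0.29, adjusted p = 0.0475). Of all 31042 probe sets, the trend and robust fit called 5017 and array weights 9883, against 4516 in the main fit. The median difference of the 6 factors was -0.0058 for dysplasia and -0.18 for SCC against normal epithelia, beside -0.015 and -0.027 over all 14217 genes.

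**Figure D2:**
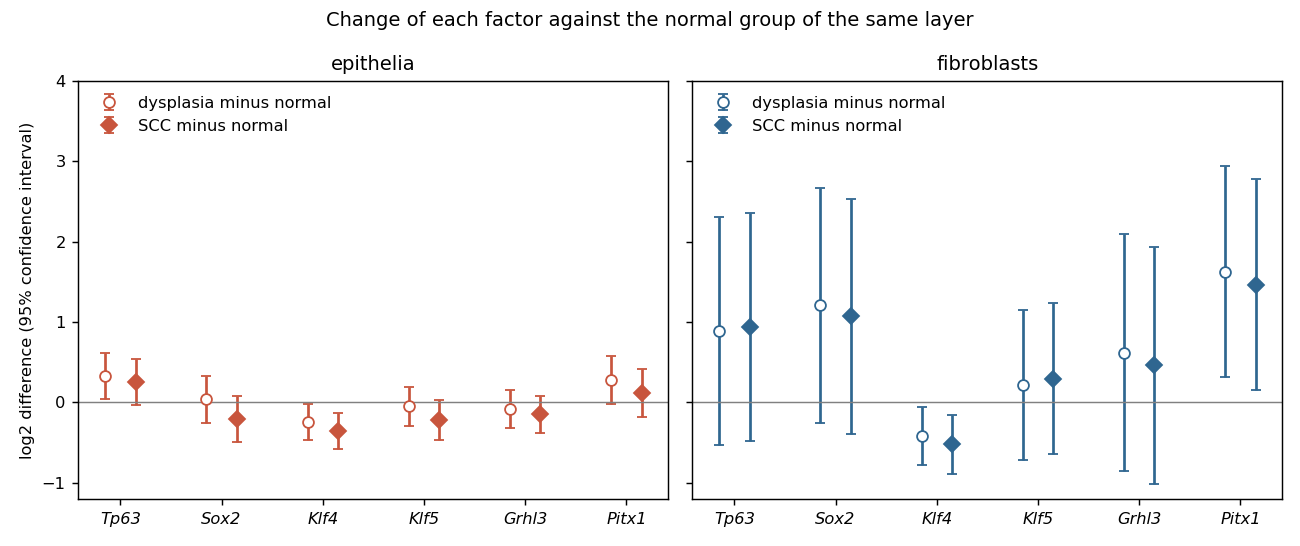
Log2 difference of each factor from the normal group of the same layer (y axis, points with 95% confidence intervals from limma, 3 samples per group), with epithelia on the left and fibroblasts on the right, open circles for dysplasia and filled diamonds for SCC. In epithelia every interval lies between -0.58 and 0.61, and in fibroblasts the upper limits for Sox2 and Pitx1 lie between 2.54 and 2.94. The Klf4 difference of SCC fibroblasts turned positive after spike-in alignment of the arrays.

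The same comparison was made in the submucosal fibroblasts. In a fit of the 9 fibroblast samples no factor was called at any step, although several other settings made calls, and the differences from normal were larger, with wider intervals, than in the epithelia. Pitx1 read 9.23, 9.30 and 7.90 in normal fibroblasts, 11.02, 10.94 and 9.36 in dysplasia fibroblasts and 10.74, 10.80 and 9.30 in SCC fibroblasts. Every dysplasia and SCC sample lay above every normal sample, although sample 3 of both lesion groups did so only barely. The differences were 1.63 for dysplasia minus normal (SE 0.58, 95% interval 0.31 to 2.94, adjusted p = 0.210) and 1.47 for SCC minus normal (SE 0.58, 95% interval 0.15 to 2.78, adjusted p = 0.113), in the group that also stood apart in the Actb difference and the neutrophil markers. With sample 3 of every stage left out, an alternative chosen after seeing the data, Pitx1 was called higher in dysplasia fibroblasts by 1.71 (adjusted p = 0.000587) and in SCC fibroblasts by 1.50 (adjusted p = 0.000331). That alternative keeps only samples 1 and 2 of each fibroblast group, which lay close together for Pitx1. Its adjusted p values therefore leave out the spread that sample 3 shows. Over the array it called 8232 probe sets for dysplasia minus normal and 13130 for SCC minus normal, against 53 and 4733 with all samples.

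Sox2 followed a similar pattern. It read 9.11, 9.58 and 7.83 in normal fibroblasts, 10.46, 10.55 and 9.13 in dysplasia fibroblasts and 10.51, 10.63 and 8.59 in SCC fibroblasts, so that sample 3 of each lesion group overlapped the normal samples. The differences of 1.21 for dysplasia (95% interval -0.26 to 2.67, adjusted p = 0.348) and 1.07 for SCC (95% interval -0.40 to 2.54, adjusted p = 0.275) against normal fibroblasts were not called. Without sample 3 of every stage they were 1.16 (adjusted p = 0.00655) and 1.23 (adjusted p = 0.00258) and were called.

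Klf4 gave lower point values in the lesion fibroblasts, except that SCC minus normal turned to 0.087 after spike-in alignment of the arrays. It read 13.36, 13.29 and 13.41 in normal fibroblasts, 12.79, 12.84 and 13.17 in dysplasia fibroblasts and 12.77, 12.63 and 13.10 in SCC fibroblasts. Neither lesion group overlapped the normal samples. The SCC minus normal difference was -0.52 (SE 0.16, 95% interval -0.89 to -0.16, adjusted p = 0.0590), and dysplasia minus normal was -0.42 (95% interval -0.78 to -0.05, adjusted p = 0.230). Without sample 3 of every stage both were called, at -0.63 (adjusted p = 0.00502) and -0.51 (adjusted p = 0.0173).

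The differences of Tp63, Klf5 and Grhl3 depended on sample 3. Tp63 read 11.71, 11.62 and 9.09 in normal fibroblasts, 12.04, 11.97 and 11.08 in dysplasia fibroblasts and 12.03, 11.82 and 11.40 in SCC fibroblasts. Klf5 read 12.14, 12.16 and 10.64 in normal fibroblasts, 12.10, 12.14 and 11.37 in dysplasia fibroblasts and 12.23, 12.09 and 11.52 in SCC fibroblasts. Grhl3 read 10.72, 10.52 and 8.20 in normal fibroblasts, 10.85, 10.79 and 9.65 in dysplasia fibroblasts and 10.75, 10.49 and 9.57 in SCC fibroblasts. All groups of these 3 genes overlapped. The SCC minus normal differences were 0.94, 0.30 and 0.46 with all samples, and 0.26, 0.0053 and 0.0027 without sample 3 of every stage, none of them called. With normal fibroblasts 3 alone left out, the SCC minus normal difference turned negative for Klf5 (-0.21) and Grhl3 (-0.35).

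By limma, 0 of 6 factors were called in each fibroblast comparison, in which 0.171% of all probe sets were called for dysplasia against normal, 1.85% for SCC against dysplasia and 15.2% for SCC against normal. Unadjusted p was under 0.05 for Klf4 and Pitx1 in both comparisons with normal fibroblasts and for none between SCC and dysplasia fibroblasts. The methods' t-test after Benjamini-Hochberg adjustment called 0 of the 6 throughout. With all samples kept, other settings called some of them for SCC minus normal. Klf4 was called lower under the dim filter, the offset, quantile normalization and the trend and robust fit (-0.52 to -0.49, adjusted p between 0.0357 and 0.0425). These settings called 3803 to 5160 probe sets over the array. A fit of all 18 samples called Klf4 (adjusted p = 0.0100) and Pitx1 (adjusted p = 0.0294), array weights and the replicate block each called Klf4, Sox2 and Pitx1, and spike-in alignment called Tp63 (1.55), Sox2 (1.68) and Pitx1 (2.07). Of all 31042 probe sets, the fit of all 18 samples called 7566, array weights 17983, the block 7405 and spike-in alignment 7374. The main fit called 4733. Spike-in alignment called 7217 of its probe sets higher, with a median of 0.56 over all probe sets. For dysplasia minus normal, array weights called Klf4 (-0.47, adjusted p = 0.00985) and Pitx1 (1.63, adjusted p = 0.00557), and the block called Sox2 and Pitx1. There array weights called 9633 of all probe sets and the block 1449, against 53 in the main fit. Leaving out SCC fibroblasts 3 also gave calls for SCC minus normal, Klf4 at -0.65 (adjusted p = 0.0242) and Pitx1 at 1.95 (adjusted p = 0.0433), and leaving out dysplasia fibroblasts 3 gave 1 for Klf4 (adjusted p = 0.0408). With these samples left out, 6796 and 6043 of all probe sets were called for SCC minus normal. Over the other probe sets, Tp63 1371107_a_at came nearest to a call, 1.37 higher in SCC than in normal fibroblasts without overlap (adjusted p = 0.0629).

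Within the 9 fibroblast samples all factors but Klf4 ran upward with the keratinocyte markers, less closely by rank for Tp63, Grhl3, Klf5 and Pitx1. The Pearson correlation with the mean of the epithelial markers was 0.98 for Tp63, 0.96 for Grhl3, 0.95 for Klf5, 0.92 for Sox2 and 0.90 for Pitx1, and -0.71 for Klf4. By rank it was 0.85, 0.72, 0.68, 0.93, 0.70 and -0.82 in the same order. Klf4 instead followed the mean of the 19 fibroblast markers (r = 0.95), against which Pitx1 (r = -0.98) and Sox2 (r = -0.93) ran opposite. These are descriptions over 9 samples that share groups and include the outlying sample 3 of each stage, and the part of keratinocyte RNA in the fibroblast values was not tested. Relative to samples 1 and 2 of the same stage, sample 3 was lower by 2.57, 0.93 and 0.53 for Tp63 across normal, dysplasia and SCC samples, by 1.52, 1.38 and 1.98 for Sox2 and by 1.36, 1.62 and 1.46 for Pitx1. For Klf4 it was higher, by 0.079, 0.36 and 0.39. In samples 1 and 2 alone the epithelial marker mean was at least 11.96 in normal fibroblasts, 12.32 and 12.33 in dysplasia fibroblasts and 12.45 and 12.36 in SCC fibroblasts. Over these samples Klf5 read 12.09 to 12.23 and Grhl3 10.49 to 10.85, with overlapping stages. The macrophage marker mean, averaged over samples 1 and 2, was 11.09 (normal), 8.67 (dysplasia) and 10.03 (SCC). Its part in the calls made without sample 3 was not tested.

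**Figure D3:**
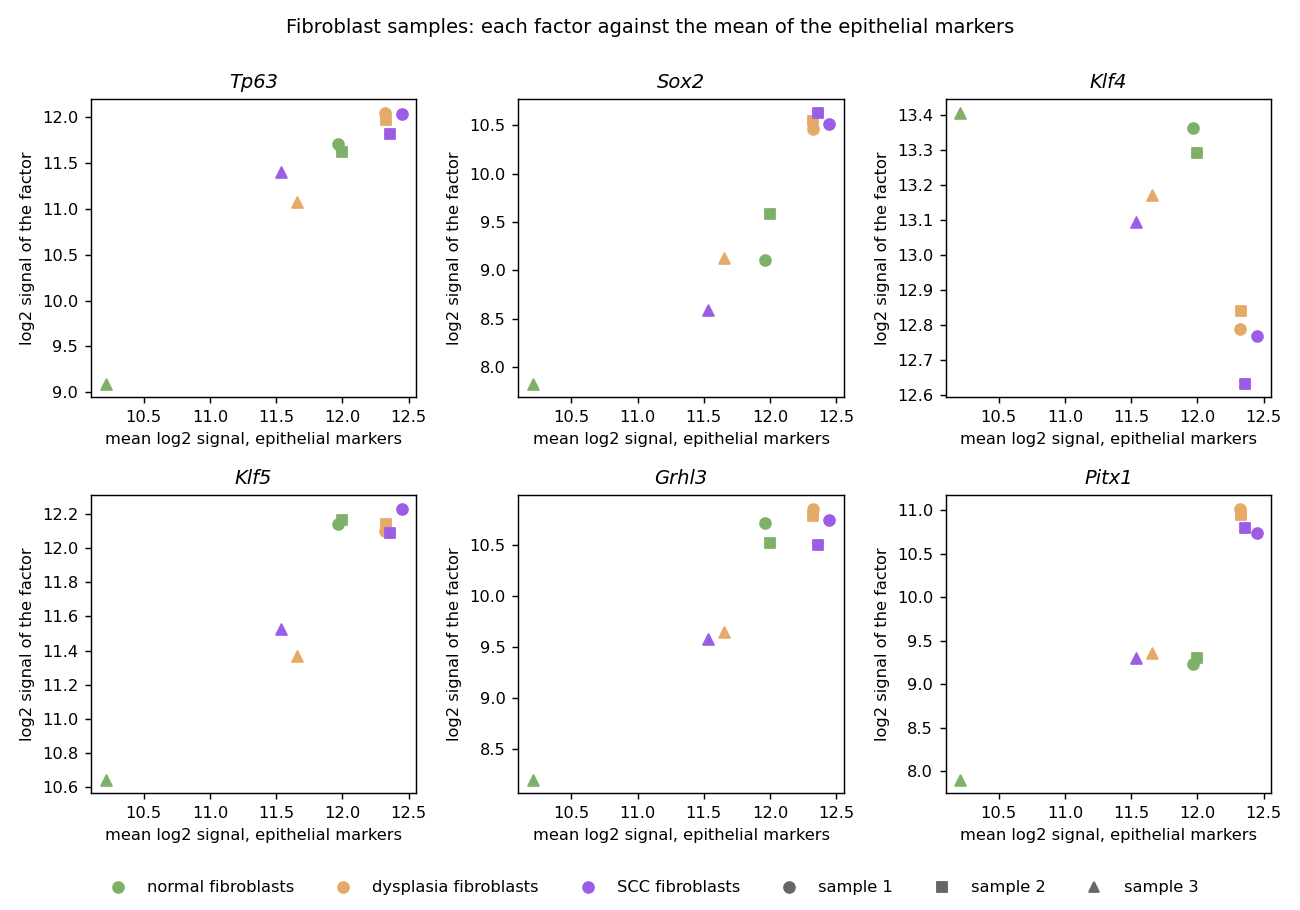
Log2 signal of each factor (y axis) against the mean log2 signal of the 17 epithelial markers (x axis) in the 9 fibroblast samples, with colour for the stage and marker shape for the sample number. All factors but Klf4 run upward with the markers (r between 0.90 and 0.98), and Klf4 runs downward (r = -0.71).

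The second question was how far these factors mark the epithelium against the fibroblasts at each stage. In normal tissue 4 of the 6 were higher in epithelia, where 63.4% of all probe sets were called and 35.7% were called higher. The methods' t-test called 2 of the 6 and not Grhl3 (adjusted p = 0.0589) or Klf5 (adjusted p = 0.176). Grhl3 averaged 12.41 ± 0.083 in normal epithelia and 9.81 ± 1.40 in normal fibroblasts (SD, n = 3 each), a 6.06-fold difference (log2 difference 2.60, SE 0.50, adjusted p = 0.000356). Pitx1 averaged 11.12 ± 0.067 in normal epithelia and 8.81 ± 0.79 in normal fibroblasts, 4.96-fold apart (2.31, SE 0.45, adjusted p = 0.000401). Sox2 averaged 11.08 ± 0.17 in normal epithelia and 8.84 ± 0.91 in normal fibroblasts, 4.73-fold apart (2.24, SE 0.50, adjusted p = 0.0012). The samples of these 3 genes and of Klf5 did not overlap between the layers in normal tissue. The share of all probe sets without overlap was not computed.

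Klf5 averaged 12.63 ± 0.14 in normal epithelia and 11.65 ± 0.87 in normal fibroblasts, 1.98-fold apart (0.98, SE 0.32, adjusted p = 0.0150). The difference was 0.48 with normal fibroblasts 3 left out (adjusted p = 0.0757), and also 0.48, but called, with sample 3 of every stage left out (adjusted p = 0.00168). Tp63 averaged 11.83 ± 0.11 in normal epithelia and 10.81 ± 1.49 in normal fibroblasts and was not called (1.03, 95% interval -0.01 to 2.07, adjusted p = 0.0781). It was called without normal fibroblasts 1 (1.48, adjusted p = 0.0200) or 2 (1.43, adjusted p = 0.0259), and without sample 3 of every stage its difference was 0.17 (adjusted p = 0.255). Its dimmer probe set 1371107_a_at was called at 1.14 (adjusted p = 0.0106). Klf4 gave close values in both layers, 13.38 ± 0.094 in normal epithelia and 13.35 ± 0.057 in normal fibroblasts, with a 95% interval of -0.25 to 0.30 for the difference of 0.025, whose sign turned to -0.021 under quantile normalization and which was called at 0.88 (adjusted p = 0.00173) after spike-in alignment of the arrays.

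In the lesions Grhl3 was the only factor called by its main probe set in the fit over all 18 samples, and more were called under some other settings. Grhl3 was higher in epithelia by 1.90 in dysplasia (SE 0.50, adjusted p = 0.00552) and by 1.99 in SCC (SE 0.50, adjusted p = 0.00579), 3.73-fold and 3.98-fold. It was the 1 of 6 called at each of these stages, where 50.4% of all probe sets were called in dysplasia and 38.3% in SCC, and 27.4% and 18.1% were called higher in epithelia. Pitx1 differed by 0.96 at both stages (95% interval -0.0027 to 1.93 in dysplasia, adjusted p = 0.0893 and 0.107), and Sox2 by 1.07 (adjusted p = 0.0882) and 0.96 (adjusted p = 0.145). Of the other Sox2 probe sets, 1381874_at was called at 0.91 in dysplasia (adjusted p = 0.0497) and at 1.03 in SCC (adjusted p = 0.0357). With sample 3 of every stage left out the Grhl3 differences were 1.79, 1.51 and 1.64 in normal, dysplasia and SCC tissue, all called, and the Pitx1 differences were 1.86, 0.42 and 0.48, all called as well. Under that alternative 5 of the 6 were called in dysplasia, with Sox2 at 0.61, Klf5 at 0.46 and Klf4 at 0.32, and 3 of the 6 in SCC, with Klf4 at 0.32. It leaves out the spread that sample 3 shows, and the share of all probe sets it called between layers is not given here. Spike-in alignment called 6 of 6 in dysplasia and 4 of 6 in SCC, all higher in epithelia. It moved the median of all probe sets to 1.22 in dysplasia and 0.37 in SCC, from 0.098 and 0.058. Most probe sets therefore shifted the same way, and these calls are not particular to the factors. With array weights Klf4 and Klf5 were called beside Grhl3 in dysplasia and Klf4 in SCC, and with only the groups compared Sox2 and Klf5 were called beside it in dysplasia. The share of all probe sets called between layers under array weights or with only the groups compared is not given here.

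**Figure D4:**
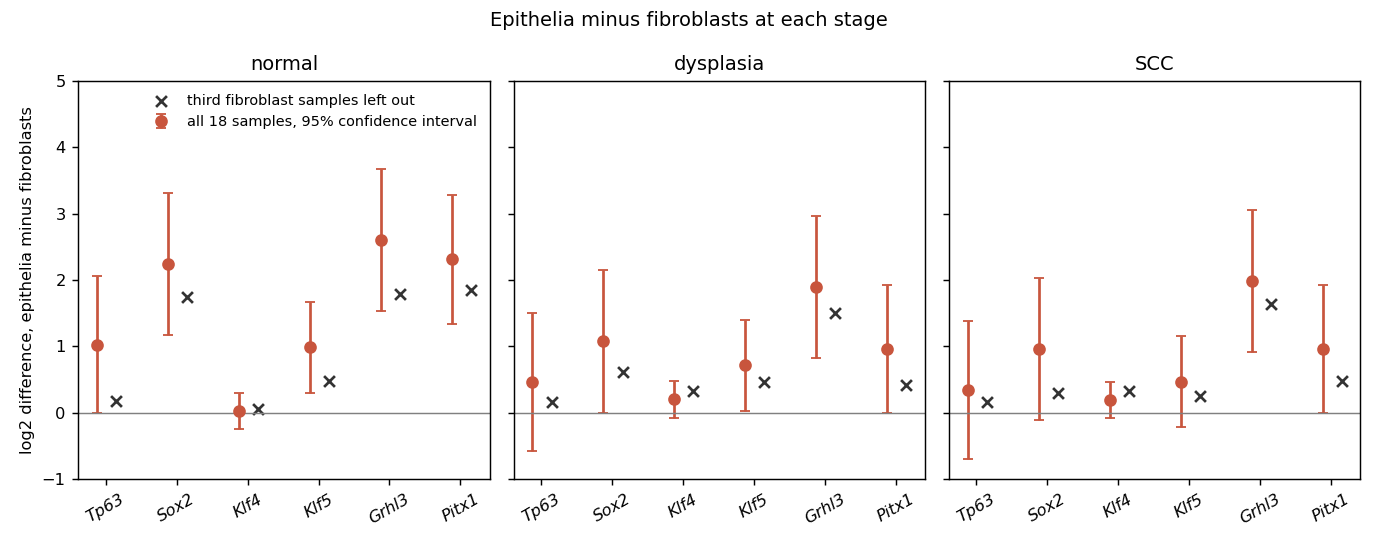
Log2 difference between epithelia and fibroblasts for each factor at each stage (y axis), as circles with 95% confidence intervals over all 18 samples and as crosses with sample 3 of every fibroblast group left out. Grhl3 lies between 1.51 and 2.60 in all 6 values, and Klf4 lies between 0.025 and 0.32, where quantile normalization gave -0.021 and spike-in alignment 0.88 in normal tissue.

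The order of the groups differed between the genes. Sox2, Klf5, Grhl3, Pitx1 and Tp63 had their 3 highest group means in the 3 epithelia and their 3 lowest in the 3 fibroblast groups. The step between the lowest epithelial group and the highest fibroblast group was 1.83 for Grhl3 and 0.68 for Pitx1, and for Tp63 it was 0.085, and it was 0.83 for Sox2 and 0.47 for Klf5. The steps of Grhl3, Sox2 and Klf5 were larger than the SD of both groups, without overlap, whereas those of Pitx1 and Tp63 were not larger than the larger SD. For Klf4 the normal epithelia and normal fibroblasts came first, followed by dysplasia and SCC epithelia and then by dysplasia and SCC fibroblasts. In that order the step between normal fibroblasts and dysplasia epithelia, 0.22, was the only one without overlap, and the steps within the normal groups and among the last 3 groups were smaller than the larger SD.

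Whether a change along the stages differed between the layers was tested with the interaction term of a fit over all 18 samples. By limma, 0 of 6 factors passed for dysplasia minus normal, for SCC minus dysplasia or for SCC minus normal, where 4.13%, 0.651% and 16.5% of all probe sets were called, and none of the 6 had an unadjusted p under 0.05. Pitx1 came nearest, with a change 1.35 smaller in epithelia than in fibroblasts at both lesion stages against normal (95% interval -2.71 to 0.019 for dysplasia, adjusted p = 0.243 and 0.164). Sox2 gave -1.17 (adjusted p = 0.366) and -1.28 (adjusted p = 0.235). Without sample 3 of every stage both genes were called, Pitx1 at -1.43 (adjusted p = 0.000727) and -1.38 (adjusted p = 0.000243) and Sox2 at -1.12 (adjusted p = 0.00697) and -1.43 (adjusted p = 0.000588). That alternative was chosen after seeing the data and leaves out the spread that sample 3 shows. It also called more of all probe sets than the main fit, by counts given further below.

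Among the 9 epithelial samples, where levels varied little, Sox2 and Klf5 ran together (r = 0.93), as did Klf4 and Grhl3 (r = 0.87), and Tp63 ran opposite to Klf4 (r = -0.70). Sox2 and Klf5 also ran with the mean of the epithelial markers (r = 0.89 and 0.91) and opposite to the fibroblast marker mean (r = -0.78 and -0.83). Over the same 9 samples and 8735 genes, the genes with the most similar profiles were Itprid2 (r = 0.995), Camsap3 and Hectd4 for Klf4, Kif20a (r = 0.984), Tbl1xr1 and Trap1 for Tp63, and Ppm1k (r = 0.981), Gsn and Hadh for Klf5. For Sox2 they were Setd6 (r = 0.975), Hadh and Pcnx4, for Pitx1 Cryl1 (r = 0.967), Slc16a13 and Pggt1b, and for Grhl3 Fbxw4 (r = 0.944), Lypd3 and Phyhip. With 9 samples in 3 groups and this many genes, such values are a description only.

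Other squamous transcription factors were called in both directions. Of 24 measured on a list of 30, 1 was higher and 4 were lower in dysplasia epithelia than in normal epithelia, and 5 were higher and 12 lower in SCC epithelia, where 14.5% and 29.9% of all probe sets were called (median -0.40, beside -0.027 over all genes). With 1 probe set per gene, as the list was counted, 3041 and 5467 of 14217 genes were called, and 2515 for SCC minus normal fibroblasts. Pou3f1, a POU-domain factor of suprabasal keratinocytes, was higher in both lesions. It read 3.70, 5.01 and 3.44 in normal epithelia, 8.49, 8.46 and 8.61 in dysplasia epithelia and 8.66, 8.17 and 9.32 in SCC epithelia. The groups of lesions lay far above the normal one, by 4.47 (SE 0.41, adjusted p = 0.00171) and 4.67 (SE 0.41, adjusted p = 0.000205). The normal values were dim, where the Sox2 probe set 1389826_at, at 4.08 on average, stood at percentile 5.64 of all probe sets. No detection call was made, so the size of these differences is uncertain, and whether background limits it was not tested. Prdm1, the Blimp1 repressor of terminally differentiating cells, fell by 1.13 in dysplasia (SE 0.19, adjusted p = 0.00765) and by 1.54 in SCC epithelia (SE 0.19, adjusted p = 0.000856). In SCC epithelia Msx2, a homeobox factor, fell by 1.99 and Bnc1, a zinc finger factor of basal keratinocytes, was 2.11 higher. Bnc1 read 5.75, 4.13 and 5.76 in normal epithelia and 5.46, 5.89 and 3.12 in normal fibroblasts, so its differences lean on single dim samples. Among the fibroblast samples 4 of the 24 were higher and 1 was lower in SCC than in normal fibroblasts, where 15.2% of all probe sets were called, with Bnc1 (2.80), Ehf (2.22) and Pou3f1 (1.32) among the higher ones, in samples whose epithelial marker mean was also higher, on average 12.11 in SCC against 11.39 in normal fibroblasts, and the part of keratinocyte RNA in this was not tested. The calls of Bnc1 and Ehf were lost without SCC fibroblasts 1 (2.65 and 2.02) or SCC fibroblasts 2 (2.78 and 2.14).

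Of 25 measured paralogs, the relatives of the 7 genes within their families, on a list of 34, 3 were higher and 7 lower in SCC epithelia than in normal epithelia, beside 29.9% of all probe sets called in either direction. With 1 probe set per gene, as the paralogs were counted, 5467 of 14217 genes were called there. Klf7, a zinc finger relative of Klf4 and Klf5, read 5.95, 5.27 and 5.75 in normal epithelia, 6.55, 6.46 and 6.45 in dysplasia epithelia and 7.70, 7.82 and 7.36 in SCC epithelia. No stage overlapped another, and Klf7 was higher by 0.83 in dysplasia (SE 0.19, adjusted p = 0.0214) and by 1.97 in SCC epithelia (SE 0.19, adjusted p = 0.000273) than in normal epithelia. The dysplasia call was lost without normal epithelia 3 (0.88) or without any 1 dysplasia sample (0.80 to 0.84). Klf7 was brighter in the fibroblast samples, at 8.77 to 10.44, and the fibroblast marker mean was 7.61 to 11.47 in SCC epithelia against 6.47 to 7.95 in normal epithelia, with the macrophage marker mean at 7.06 to 9.30 against 6.05 to 6.16, and their part in the Klf7 values was not tested. Sox7, an F-group Sox factor of endothelium, was higher by 0.96 and 1.20. It read 10.69 to 10.82 in dysplasia epithelia, 10.85 to 11.23 in SCC epithelia and 9.01 to 11.16 in the fibroblast samples. The endothelial marker mean was 6.10 to 6.67 in dysplasia epithelia and 9.89 to 11.33 in the fibroblast samples. The part of endothelial cells in the Sox7 values was not tested. Klf12 fell by 0.66 and 1.23, the first of which was not called without any 1 normal sample or without dysplasia epithelia 2 or 3 (-0.71 to -0.54). Klf2, an endothelial relative, read 7.90, 9.82 and 6.58 in SCC epithelia against 5.93, 6.20 and 5.84 in normal epithelia, 2.11 higher (adjusted p = 0.0369). Leaving out SCC epithelia 2 reduced this to 1.25 (adjusted p = 0.0301), and it came to 2.87 on leaving out SCC epithelia 3, also called, whereas the call was lost on leaving out any other epithelial sample (2.04 to 2.22). Klf2 read 12.39 to 13.11 in the fibroblast samples, and its SCC epithelia values had the same order as the fibroblast marker means of these samples (9.51, 11.47 and 7.61) and their macrophage marker means (8.28, 9.30 and 7.06). The endothelial marker mean was 6.36 to 8.89 in SCC epithelia against 5.86 to 6.62 in normal epithelia, and the part of these cells in the Klf2 values was not tested.

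Of 24 measured genes of the basal programme of p63, on a list of 30, 5 were higher and 0 lower in dysplasia epithelia than in normal epithelia, and 9 were higher and 1 lower in SCC epithelia, beside 14.5% and 29.9% of all probe sets called. With 1 probe set per gene, the unit of these lists, 3041 and 5467 of 14217 genes were called. Cdh3, the P-cadherin gene, was higher by 1.05 (adjusted p = 0.00535) and 1.67 (adjusted p = 0.00028), and Lamb3, a laminin chain of the basement membrane, by 1.00 (adjusted p = 0.0203) and 1.37 (adjusted p = 0.00258), of which the dysplasia call was lost without normal epithelia 1 or 2 or any 1 dysplasia sample (0.88 to 1.06). Of 30 measured cornified and suprabasal genes, on a list of 43, 3 were higher and 8 lower in dysplasia epithelia and 4 higher and 11 lower in SCC epithelia than in normal epithelia, beside the same 14.5% and 29.9%. Ivl, which encodes involucrin, fell by 2.28 in dysplasia (adjusted p = 0.0151) and by 3.15 in SCC epithelia (adjusted p = 0.00176), the first not called without normal epithelia 3 (-2.19), whereas Krt1, a keratin of suprabasal cells, was higher by 3.09 at both stages (adjusted p = 0.00198 and 0.000342). Beside these, 15 of 20 measured proliferation markers were higher in dysplasia and 16 in SCC epithelia than in normal epithelia, with 0 lower in either, again beside 14.5% and 29.9% of all probe sets.

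**Figure D5:**
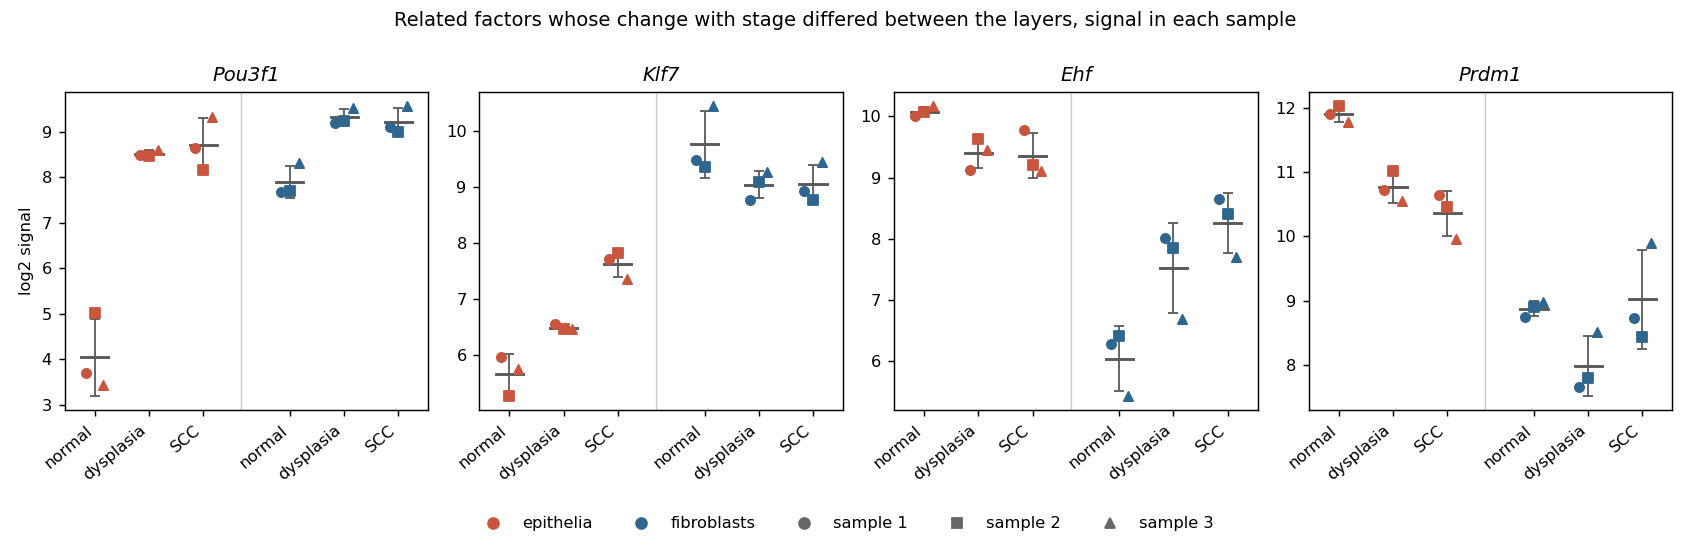
Log2 signal (y axis) of Pou3f1, Klf7, Ehf and Prdm1 in each sample, with group means and error bars of 1 SD (n = 3), epithelia in red and fibroblasts in blue. Pou3f1 lies at 3.44 to 5.01 in normal epithelia and at 8.17 to 9.32 in dysplasia and SCC epithelia, and the 3 stages of Klf7 do not overlap in epithelia, at 5.27 to 5.95, 6.45 to 6.55 and 7.36 to 7.82.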

How the data were processed

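The authors hybridised RNA of 18 samples to 1-colour Affymetrix rat arrays, and the submitters' processing notes name Affymetrix Expression Console and RMA. The deposited values are linear signal intensity, with a lowest value of 1 on each array, and log2 was taken of them here. For the annotation release and the scan batches, nothing was given in the sources used here. Of 31099 probe sets, 57 controls were left out. Among the 31042 others, 20826 name 1 gene, 436 several and 9780 none, after GEO's platform annotation. Each layer was fitted apart over its 9 samples, and the layers were compared at each stage, with the difference of their changes, in a fit over all 18 (limma 3.58.1 in R 4.3.3, lmFit and eBayes, Benjamini-Hochberg adjustment over all probe sets, call at an adjusted p under 0.05). The scripts were tested on simulated data. With 3 samples per group, the number of arrays limits the precision, and an exact permutation test could not go below p = 0.1.

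The members and gene lists were chosen with earlier results of these data known. Named list genes came from the up to 4 largest called differences in each list and comparison, and list members with a called difference of change. A gene with several probe sets was taken by the one with the highest mean. Percentages beside counts of factors or list genes are over all probe sets, which include dim ones and ones that name no gene. Sample numbers were checked for pairing by the correlation of deviations from group means. Every same-numbered pair passed 0.1 only between SCC and dysplasia fibroblasts (0.32 to 0.59). There, however, samples 1 and 2 paired across numbers reached 0.33 and 0.35, so the numbers were not shown to pair samples. No main fit used a replicate block. Alternatives covered the filter on dim probe sets, an added offset, normalization, the samples in the fit, the replicate block, the variance model, array weights, the methods' t-test, the choice of probe set and each sample left out. Leaving out sample 3 of all fibroblast groups was added after seeing the data, and it keeps only samples 1 and 2 of these groups. Promoter sequences are RefSeq's on GRCr8. Protein sequences were not used here.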

Additional observations from a re-analysis of the deposited data

Results flagged for a closer look

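No member had a difference of change between the layers that passed the adjusted threshold, but several related factors did, by the interaction term of the limma fit over 18 samples (change in epithelia minus change in fibroblasts, log2). For dysplasia minus normal, Pou3f1 had a difference of 3.05 (adjusted p = 0.00478), Klf7 of 1.54 (adjusted p = 0.0317), Ehf of -2.15 (adjusted p = 0.0239), Sox10 of -1.04 (adjusted p = 0.0305) and Pitx3 of -0.94 (adjusted p = 0.0415). For SCC minus normal, Pou3f1 had 3.34 (adjusted p = 0.000544), Klf7 had 2.68 (adjusted p = 0.00037), Klf2 had 2.35 (adjusted p = 0.0362) and Klf9 had 1.43 (adjusted p = 0.0201). Ehf had -2.94 (adjusted p = 0.00118), Prdm1 had -1.68 (adjusted p = 0.0171) and Sox10 had -1.02 (adjusted p = 0.0123) in the same comparison. The Klf7 and Ehf calls for dysplasia and the Klf2 call for SCC were lost when single samples were left out, with values of 1.20 to 1.75 for Klf7, -2.57 to -1.85 for Ehf and 1.49 (without SCC epithelia 2, still called) to 3.11 for Klf2. The Pou3f1 values rest on dim normal epithelia, at 3.44 to 5.01, and Pitx3 was dim in every sample, at 3.82 to 5.36. No detection call was made, so the size of these differences is uncertain.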

How the results depend on the processing

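Counts of called probe sets (dysplasia minus normal, SCC minus dysplasia and SCC minus normal unless one is named) moved by more than 1.5 times as follows, and the cause was not tested. Array weights gave 9883 and 16 for the first 2 steps in epithelia, 9633, 9425 and 17983 in fibroblasts and 8059, 3610 and 12281 for the difference of change. Spike-in alignment gave 2931 and 43 in epithelia, 92, 9161 and 7374 in fibroblasts, 26396 between layers in dysplasia, and 285 and 12297 for the first 2 differences of change. The methods' t-test gave 2437, 0 and 4631 in epithelia, 0, 160 and 884 in fibroblasts and 5204 between layers in SCC. The replicate block gave 3 for SCC minus dysplasia epithelia, 1449 and 7405 for dysplasia and SCC minus normal fibroblasts and 412, 14 and 3111 for the difference of change. A fit of all 18 samples gave 69 for SCC minus dysplasia epithelia and 1141, 1511 and 7566 in fibroblasts. With only the groups compared, SCC minus dysplasia epithelia gave 0 and dysplasia minus normal fibroblasts 13. For SCC minus dysplasia epithelia the offset gave 19, quantile normalization 20, the trend and robust fit 68 and the dim filter 80. The dim filter, which tests fewer probe sets, gave 10360, 8814 and 7106 between layers in normal, dysplasia and SCC tissue. Using 1 probe set per gene gave 5467 for SCC minus normal epithelia, 16, 289 and 2515 in fibroblasts, 9582, 7755 and 6090 between layers and 62 and 2919 for the last 2 differences of change. Without sample 3 of every fibroblast group the counts were 8232, 5019 and 13130 in fibroblasts and 3708, 987 and 8584 for the difference of change. Leaving out 1 sample gave 1416 to 5043 and 0 to 736 for the first 2 steps in epithelia, 10 to 1000, 126 to 1276 and 936 to 6796 in fibroblasts, and 476 to 1945, 56 to 508 and 3101 to 6790 for the difference of change.

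Spike-in alignment shifted the median difference of all probe sets to 0.71 for SCC minus dysplasia and 0.56 for SCC minus normal fibroblasts, to 1.01, 1.22 and 0.37 between layers in normal, dysplasia and SCC tissue, to 0.091 for dysplasia minus normal epithelia and to 0.23, -0.84 and -0.62 for the difference of change. The share of calls that were higher was then 69.6% (48.1% without it) for dysplasia minus normal epithelia, 99.9% (82.5%) and 97.9% (51.3%) for SCC minus dysplasia and SCC minus normal fibroblasts, 85.2% (56.3%), 92.0% (54.3%) and 71.4% (47.4%) between layers, and 73.3% (46.8%) and 7.60% (43.1%) for the difference of change of dysplasia and of SCC against normal. Quantile normalization gave 59.2% between layers in SCC.

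Of the member values that changed sign, only Sox2 in dysplasia minus normal epithelia by probe set 1389826_at (-0.40) was called there. This probe set gave Sox2 0.38 for SCC minus dysplasia epithelia and -0.18 and 0.62 for dysplasia minus normal and SCC minus dysplasia fibroblasts. Probe set 1375153_at gave Sox2 0.14 for SCC minus normal epithelia, and it and 1381874_at gave 0.12 and 0.13 for the difference of change of SCC against dysplasia. Probe set 1398159_at gave Klf5 0.096, 0.16 and 0.25 in epithelia, -0.12, -0.082 and -0.20 in fibroblasts and 0.22, 0.24 and 0.46 for the difference of change, and 1385961_at gave -0.078 for SCC minus dysplasia fibroblasts. Spike-in alignment gave Klf5 0.11 and Grhl3 0.073 for dysplasia minus normal epithelia, Sox2 0.58, Klf4 0.62, Grhl3 0.56 and Pitx1 0.56 for SCC minus dysplasia fibroblasts, Klf4 0.087 for SCC minus normal fibroblasts, and Grhl3 -0.72, Pitx1 -0.81 (SCC against dysplasia) and Klf4 -0.38 (SCC against normal) for the difference of change. Quantile normalization gave Klf5 0.034 for dysplasia minus normal epithelia, Klf4 -0.021 between normal layers and Klf4 0.086 for the SCC against dysplasia difference of change. Array weights gave Sox2 -0.069 for dysplasia minus normal epithelia, Klf5 -0.022 for dysplasia minus normal and Sox2 0.046 for SCC minus dysplasia fibroblasts, and Grhl3 -0.020 and Pitx1 -0.070 for the SCC against dysplasia difference of change, where the offset gave Pitx1 -0.00082. Without sample 3 of every fibroblast group Klf5 had -0.035 for dysplasia minus normal, Tp63 -0.083 and Sox2 0.063 for SCC minus dysplasia, and Tp63 0.0099 for the last-named difference of change.

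Leaving out 1 sample gave sign changes in values that were not called. In epithelia the ranges were -0.060 to 0.098 for Sox2 and -0.13 to 0.0064 for Klf5 (dysplasia minus normal) and -0.17 to 0.025 for Tp63 (SCC minus dysplasia). In fibroblasts they were -0.29 to 0.47 for Klf5 and -0.19 to 1.07 for Grhl3 (dysplasia minus normal), -0.21 to 0.55 and -0.35 to 0.91 for the same genes (SCC minus normal), and -0.26 to 0.23 for Tp63, -0.60 to 0.52 for Sox2, -0.23 to 0.017 for Klf4, -0.17 to 0.29 for Klf5, -0.55 to 0.19 for Grhl3 and -0.70 to 0.33 for Pitx1 (SCC minus dysplasia). Between normal layers Klf4 ran from -0.025 to 0.068. The difference of change ran from -1.01 to 0.30 for Tp63, -0.52 to 0.24 for Klf5 and -1.15 to 0.11 for Grhl3 (dysplasia against normal), from -1.14 to 0.17 for Tp63 and -1.06 to 0.20 for Grhl3 (SCC against normal), and from -0.30 to 0.19 for Tp63, -0.77 to 0.35 for Sox2, -0.13 to 0.12 for Klf4, -0.46 to 0.0030 for Klf5, -0.26 to 0.48 for Grhl3 and -0.49 to 0.54 for Pitx1 (SCC against dysplasia).

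The Klf4 call in SCC minus normal epithelia was also lost under quantile normalization (-0.22, adjusted p = 0.147), spike-in alignment (-0.30, adjusted p = 0.156), only the groups compared (adjusted p = 0.0514), all 18 samples (adjusted p = 0.0526) and the replicate block (adjusted p = 0.0506). The Klf5 call between normal layers was lost with only the groups compared (adjusted p = 0.0684), by the methods' t-test (adjusted p = 0.176) and by probe set 1398159_at (adjusted p = 0.991), and the Grhl3 call there by the methods' t-test (adjusted p = 0.0589). Between SCC and dysplasia fibroblasts the block called 846 probe sets, against 573 without it, and 0 of 6 factors. In no comparison were the sample numbers shown to pair samples. Against normal fibroblasts the block called Sox2 and Pitx1 in dysplasia and Sox2, Klf4 and Pitx1 in SCC. Intensities near background and 3 arrays a group limit what can be seen of the dim probe sets.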
